A study of Mus musculus with 6 samples.

Results

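The matrix metalloproteinases (Mmp), the Adamts proteases with their Adamtsl relatives, and the tissue inhibitors of metalloproteinases (Timp) were followed in the first branchial arch of mouse embryos. Members were chosen by gene symbol alone, as every probe set whose only symbol in the array annotation was Mmp, Adamts or Adamtsl with a number, or Timp1 to Timp4. The rule found 78 probe sets of 45101 on the array, which belong to 42 of 18194 genes: 18 Mmp, 15 Adamts, 5 Adamtsl and 4 Timp genes. Where a gene had several, the one brightest on average across the 6 arrays gave its value.

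Mmp and Adamts proteins are zinc-dependent endopeptidases that are made as inactive proenzymes and cut proteins of the extracellular matrix. Secreted and membrane-anchored Mmps degrade collagens and other matrix proteins, whereas several Adamts proteases cleave large hyaluronan-binding proteoglycans such as versican, or process procollagen. Adamtsl proteins resemble Adamts proteins but lack the protease domain, and Timps bind and block the active enzymes. In the embryonic face, mesenchyme derived from the neural crest lays down and remodels this matrix as the jaws and the palate grow.

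The 6 arrays are biological replicates from embryos at embryonic day 11.5, and the labels give 1 arch per embryo. All embryos were Ezh2lox/lox, so both groups carried conditional alleles of Ezh2, the methyltransferase subunit of the Polycomb repressive complex that silences developmental genes. The 3 arches labelled mutant also carried Wnt1Cre, which acts in the neural crest lineage, and the 3 labelled control had no Cre listed. The arch also holds ectoderm, endoderm, mesoderm-derived muscle precursors and vessels, which lie outside the crest lineage. Values are log2 signals, differences are labelled mutant minus labelled control, and errors of means are SD with n = 3 arrays.

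The array values had a 25th percentile of 4.32 and a median of 5.81, and signals near the low end hold mostly background. Of 10 arch mesenchyme markers, 9 lay above that median on every array. The Ezh2 probe set read 11.63 ± 0.15 in labelled-control and 11.66 ± 0.01 in labelled-mutant arches and, as its place relative to the deleted part is not given in the sources used here, it checks no label. Xist, the RNA of the inactive X chromosome, read 5.62 ± 0.15 against 13.03 ± 0.10, so the labelled-control arches had the male and the labelled-mutant arches the female pattern, and sex and label cannot be told apart. Hoxa9, a trunk patterning gene that is silent in the normal jaw arch and is held silent by Polycomb, read 11.28 ± 0.37 in the arches labelled control and 4.21 ± 0.36 in those labelled mutant, the reverse of what the labels would give. Every direction below therefore follows the labels as deposited.

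The promoters of members differed in base content and motifs, and 5 are shown because they stand for the kinds found. Of the 42 genes, 27 matched an entry in the RefSeq promoter table (assembly GRCm38.p6), with 30 promoters of 300 bases, 250 before and 50 after the start. The following runs are the 250 bases before the start, 5′ to 3′ on the gene's strand, with capitals marking 4 motifs searched on both strands. The TATA box, where the transcription machinery docks, was searched as TATAAA. The AP-1 motif, bound by Fos and Jun proteins, was searched as TGACTCA. The PEA3 motif, bound by Ets factors, was searched as AGGAAG, and the GC box, bound by Sp factors, as GGGCGG.
Adamts9 (chr6:92943535-92943784, minus strand): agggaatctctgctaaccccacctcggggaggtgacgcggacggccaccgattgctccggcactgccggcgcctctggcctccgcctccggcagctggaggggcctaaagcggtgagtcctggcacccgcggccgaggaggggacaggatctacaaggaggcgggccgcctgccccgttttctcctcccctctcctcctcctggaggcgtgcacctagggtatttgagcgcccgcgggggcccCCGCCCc
Adamts20 (chr15:94404351-94404600, minus strand): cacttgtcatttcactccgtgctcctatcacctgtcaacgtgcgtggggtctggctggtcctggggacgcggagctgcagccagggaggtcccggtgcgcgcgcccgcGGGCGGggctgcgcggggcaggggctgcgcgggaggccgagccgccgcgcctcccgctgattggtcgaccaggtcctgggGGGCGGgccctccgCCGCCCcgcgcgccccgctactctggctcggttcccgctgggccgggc
Mmp14 (chr14:54431348-54431597, plus strand): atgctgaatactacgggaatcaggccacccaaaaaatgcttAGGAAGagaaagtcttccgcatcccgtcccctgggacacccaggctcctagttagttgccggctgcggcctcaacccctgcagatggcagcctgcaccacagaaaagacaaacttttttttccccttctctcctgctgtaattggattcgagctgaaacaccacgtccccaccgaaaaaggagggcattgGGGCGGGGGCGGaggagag
Mmp3 (chr9:7445572-7445821, plus strand): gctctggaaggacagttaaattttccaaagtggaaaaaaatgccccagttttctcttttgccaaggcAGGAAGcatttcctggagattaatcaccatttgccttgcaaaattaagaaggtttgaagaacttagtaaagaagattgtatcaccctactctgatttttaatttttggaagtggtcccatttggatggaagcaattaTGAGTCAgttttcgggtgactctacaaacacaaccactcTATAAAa
Mmp13 (chr9:7272264-7272513, plus strand): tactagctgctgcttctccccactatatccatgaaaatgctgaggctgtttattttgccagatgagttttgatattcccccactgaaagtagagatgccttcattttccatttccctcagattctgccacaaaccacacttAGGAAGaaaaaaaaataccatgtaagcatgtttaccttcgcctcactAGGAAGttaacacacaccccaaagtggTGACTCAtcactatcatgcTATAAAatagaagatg
The first 3 belong to genes that fell, and the last 2 to a row of neighbouring Mmp genes on chromosome 9 that stayed at low signals in both groups. Among 32841 promoters of the table, 13.6% held the TATA box, 5.2% the AP-1 motif, 35.4% the PEA3 motif and 35.7% the GC box. The Mmp genes on chromosome 9 had 11 promoters in the table, of which 9 held the TATA box, 7 the AP-1 motif, 8 the PEA3 motif and 0 the GC box, with a median of 1 CG dinucleotide. The 10 Adamts and Adamtsl promoters had a median of 24.5 CG dinucleotides against 7 over the whole table, and 9 of them held the GC box, 2 the TATA box, 1 the PEA3 motif and 0 the AP-1 motif. Adamts15 and Adamts7 had no entry. A match describes the letters and is no evidence of binding.

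Of the 42 genes, 5 fell in the labelled-mutant arches and 0 rose (limma, Benjamini-Hochberg adjusted p under 0.05 over all genes). These were Adamts9, Adamts20, Adamts15, Mmp14 and Adamts7, and the changes of the first 3 were close to 2-fold. Of all genes measured, 5.53% passed, 4.3% lower and 1.23% higher. The median change of the members was -0.01, against 0.02 over all genes, and 13 members had an unadjusted p under 0.05, 2 of them higher, where 18.7% of all genes did in either direction. The groups did not overlap for 14 of the 42 members, 33.3% against 24.9% of all genes. By family, 4 of 15 Adamts genes fell (median change -0.20), as did 1 of 18 Mmp genes (median 0.00), while 0 of 5 Adamtsl genes (0 at an unadjusted p under 0.05) and 0 of 4 Timp genes (3 at that level) passed in limma. When each array's 20th percentile was set as a floor, 0 members passed (limma, 12 at an unadjusted p under 0.05), and 329 of all genes did, against 1007.

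**Figure D1:**
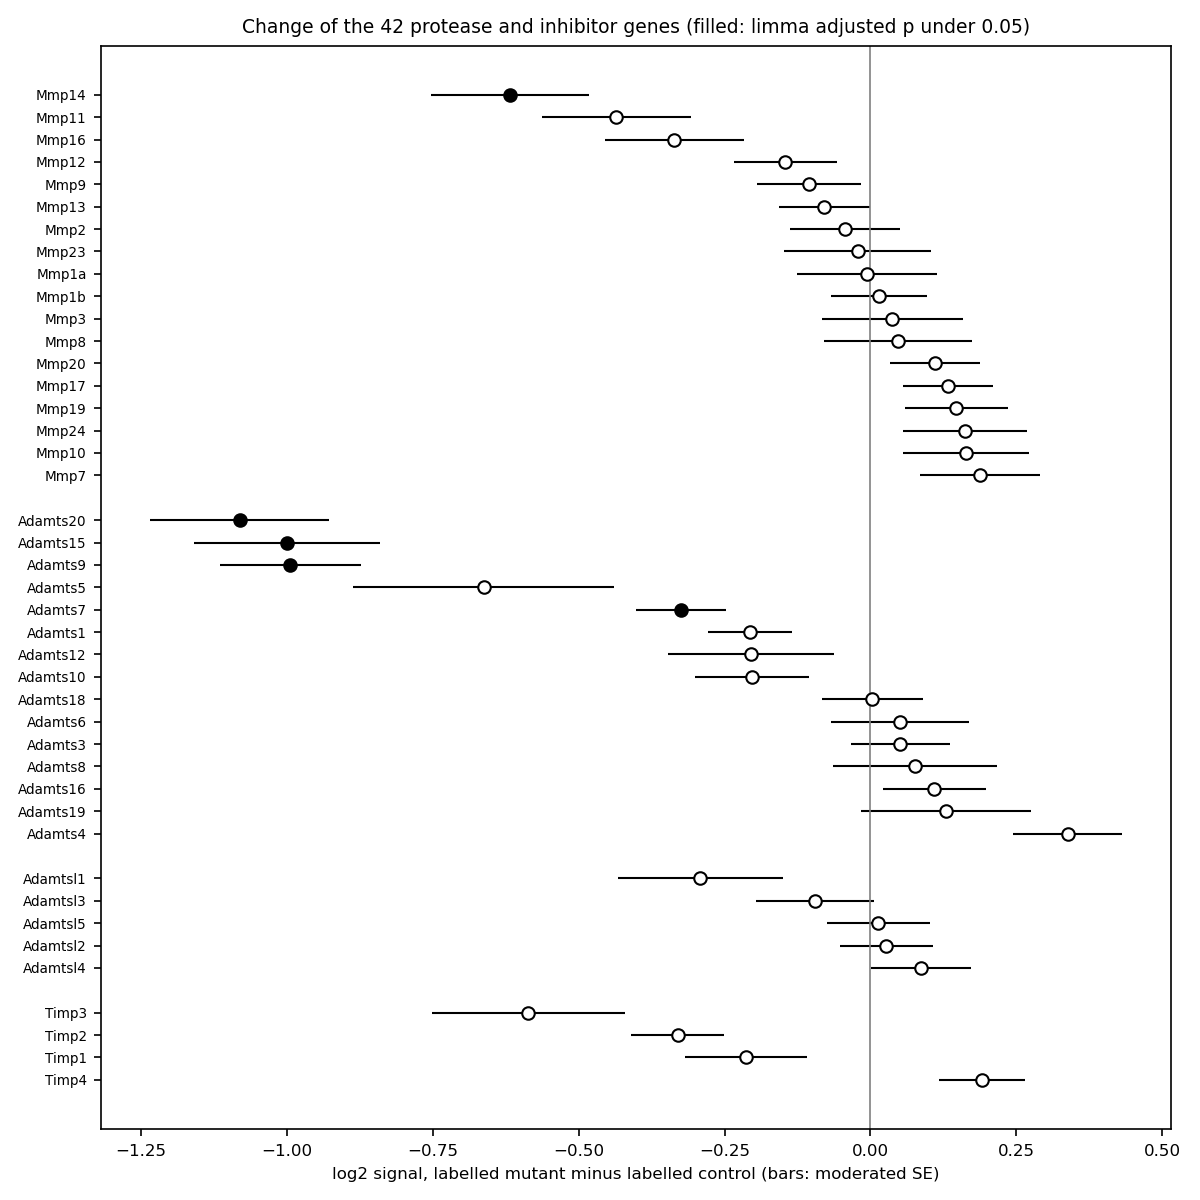
The log2 change of each of the 42 genes (labelled mutant minus labelled control, x axis) with its moderated standard error as a bar, grouped by family. Filled points passed an adjusted p of 0.05, and the 3 lowest are Adamts20, Adamts15 and Adamts9, between -1.08 and -0.99.

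The largest falls were in proteoglycan-cleaving Adamts genes. Adamts9 encodes a protease that cleaves versican. Its signal (probe set 1437785_at) was 9.39, 9.52 and 9.16 on the labelled-control arrays and 8.53, 8.17 and 8.39 on the labelled-mutant arrays. Every labelled-control array lay above every labelled-mutant array. The gene fell by 0.99 with a standard error of 0.12, which is 1.99-fold (limma, adjusted p = 0.00274). A further probe set of Adamts9 also fell, by 1.09 (limma, adjusted p = 0.0202 over all probe sets), while a dimmer one changed by -0.24 and did not pass.

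Adamts20 is the closest relative of Adamts9, and its loss gives mice with a white belt, a defect of pigment cells. Its only probe set (1456901_at) read 9.55, 9.56 and 9.43 in the labelled-control and 8.79, 8.12 and 8.38 in the labelled-mutant arches. The labelled-control arrays were nearly level, and the labelled-mutant arrays were lower and more spread, with array 1 the highest of them. Skeletal muscle markers had the same order on the labelled-mutant arrays, with means of 6.82, 6.00 and 6.41 against 7.04, 7.39 and 7.28. So did endothelial (7.77, 7.62 and 7.68), macrophage (6.56, 6.28 and 6.36), smooth muscle (7.64, 7.47 and 7.51) and erythroid markers (9.53, 9.33 and 9.44). On the labelled-control arrays the order of Adamts20 matched none of these lists. The part of these cell types in the change was not tested. Adamts20 fell by 1.08 with a standard error of 0.15, or 2.12-fold (limma, adjusted p = 0.00535). The promoters of Adamts9 and Adamts20 printed above held 25 and 41 CG dinucleotides in their 300 bases.

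Adamts15 is another protease of the aggrecan- and versican-cleaving branch. It read 7.56, 8.06 and 7.79 against 7.11, 6.63 and 6.68 (probe set 1427056_at). Again the groups did not overlap, with labelled-mutant array 1 nearest to the controls. It fell by 1.00 with a standard error of 0.16, or 2.00-fold (limma, adjusted p = 0.00905). Adamts9, Adamts20 and Adamts15 each passed without any 1 of the 6 arrays, with adjusted p values of at most 0.0168, 0.034 and 0.0476 in limma. With floored signals they missed the threshold (limma, adjusted p = 0.0515, 0.0736 and 0.0893) although their own signals all lay above the floor.

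The other members of this branch did not pass. Adamts4, the classical aggrecanase, read 6.94, 6.96 and 7.20 against 7.32, 7.35 and 7.45. All labelled-mutant arrays were the higher ones, a change of 0.34 with a standard error of 0.09 (limma, adjusted p = 0.0831). It passed as higher without labelled-control array 3 (limma, adjusted p = 0.0288) and with each array centred on its median gene (0.0301). The same held with quantile normalization (0.0346) and array weights (0.0395), while it missed the threshold without each of the other arrays (0.142 to 0.292). Its second probe set changed by 0.27, also with no overlap between the groups. Adamts5, the main aggrecanase of mouse cartilage, read 5.37, 6.07 and 6.29 against 5.52, 5.06 and 5.16, so the first labelled-control array lay inside the labelled-mutant range. Its change of -0.66 had a standard error of 0.22 (limma, adjusted p = 0.15). Among arrays left out in turn, the gene passed only without labelled-control array 1, at -0.93 (limma, adjusted p = 0.018). Its other 3 probe sets changed by -0.27, -0.41 and -0.03, and the mean of its probe sets by -0.34 (limma, adjusted p = 0.18). Adamts1 read 9.01, 8.99 and 8.93 against 8.80, 8.71 and 8.79, a small separation of -0.21 with a standard error of 0.07 that did not pass (limma, adjusted p = 0.169).

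**Figure D2:**
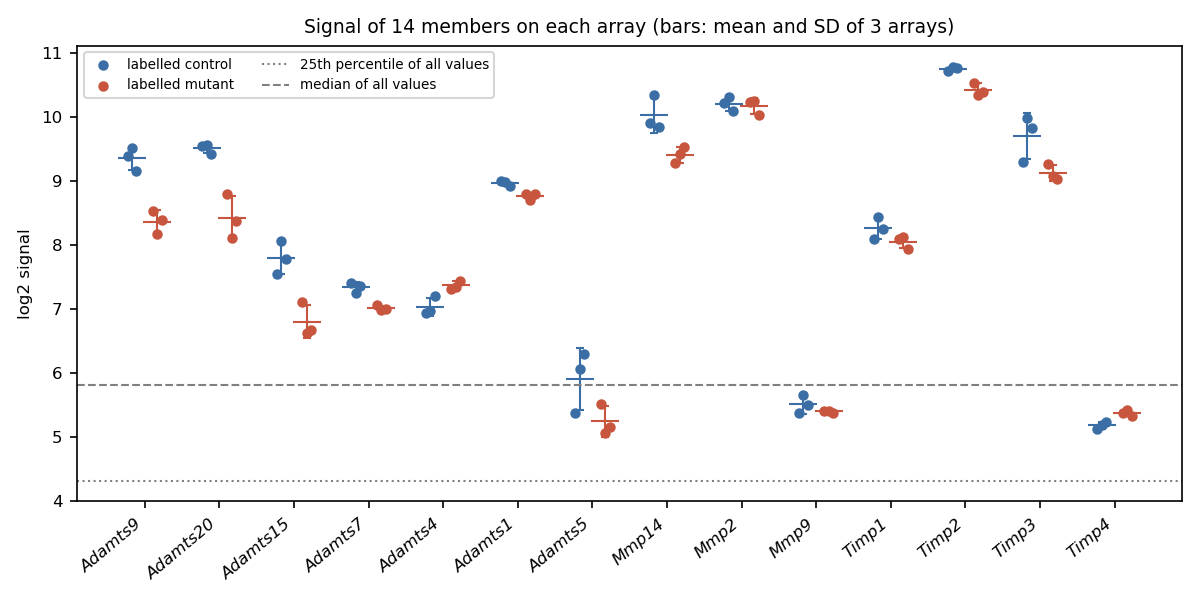
Log2 signal of 14 members on each of the 6 arrays, with the mean and SD of each group of 3. The labelled-control and labelled-mutant points are apart for Adamts9, Adamts20, Adamts15 and Mmp14, and by smaller gaps or changes for Adamts7, Adamts1, Timp2 and Timp3. They are also apart for Adamts4 and Timp4, which are higher in the labelled-mutant arches. Points overlap for Adamts5 and Timp1, and lie on top of each other for Mmp2 and Mmp9.

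Outside the proteoglycan-cleaving branch, Adamts7, which cleaves cartilage oligomeric matrix protein, showed the smallest change among those that passed. Its values were 7.42, 7.25 and 7.36 against 7.06, 6.99 and 7.00 (probe set 1452339_at). The groups were apart by a narrow margin with little spread inside each, a fall of 0.32 with a standard error of 0.08, or 1.25-fold (limma, adjusted p = 0.047). Adamts7 missed the threshold when any 1 of the 6 arrays was left out, with limma adjusted p values from 0.0598 to 0.19. Adamts12, its nearest relative in sequence and substrate, changed by -0.20 with overlapping groups (limma, adjusted p = 0.499). Adamts10, tied to fibrillin microfibrils, read 7.65, 7.62 and 7.81 against 7.57, 7.58 and 7.33, a change of -0.20 that did not pass (limma, adjusted p = 0.313). Adamts3, which trims procollagens, changed by 0.05, and Adamts6, Adamts16, Adamts18 and Adamts19 by 0.05, 0.11, 0.00 and 0.13, all with overlapping groups. Adamts16 had a dimmer probe set that changed by -0.42 with no overlap, opposite in sign to the brighter one.

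Among the Mmps only Mmp14 passed. Mmp14 is the chief membrane-anchored collagenase, and on the cell surface it activates proMmp2 with Timp2 as the bridge between them. Its signal (probe set 1448383_at) was 9.91, 10.34 and 9.84 against 9.28, 9.42 and 9.53. The labelled-control arrays were all higher, with array 2 well above the others. Mmp14 fell by 0.62 with a standard error of 0.14, or 1.53-fold (limma, adjusted p = 0.0359). It held only without labelled-control array 3 (limma, adjusted p = 0.031) among the 6 arrays left out in turn, and missed the threshold without each of the other 5 (0.0555 to 0.119) and with median centring (0.0605). The 2 dimmer probe sets of Mmp14 changed by -0.16 and 0.11 with overlapping groups, and the mean of its 3 probe sets changed by -0.22 (limma, adjusted p = 0.272).

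The partners of Mmp14 in this activation step did not pass the test. Mmp2, the gelatinase of mesenchyme, read 10.22, 10.32 and 10.10 against 10.23, 10.25 and 10.03. The groups overlapped fully, and the change of -0.04 had a 95% interval from -0.26 to 0.17 (limma, adjusted p = 0.862). Timp2 read 10.72, 10.79 and 10.77 against 10.54, 10.35 and 10.40. The groups were apart with a change of -0.33 and a standard error of 0.08, narrowly missing the threshold (limma, adjusted p = 0.0509). Timp2 passed as lower with quantile normalization (limma, adjusted p = 0.0454), cyclic loess (0.0404), the filter on dim genes (0.0466), trend and robust settings (0.0273) and array weights (0.0325). It missed the threshold when any 1 of the 6 arrays was left out (0.0534 to 0.217) and with the mean of its probe sets (0.375). Of the 5 other Timp2 probe sets, all had overlapping groups, with changes from -0.28 to 0.07. Reck, a membrane-anchored inhibitor of Mmp14 and other Mmps, read 10.08 ± 0.14 against 10.05 ± 0.06.

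The remaining inhibitors also did not pass. Timp3, which sits in the matrix and is the Timp that blocks Adamts proteases, read 9.30, 9.99 and 9.83 against 9.26, 9.08 and 9.03. Labelled-control array 1 stood close to the labelled-mutant arrays, and the change of -0.59 had a standard error of 0.17 (limma, adjusted p = 0.0899). Among arrays left out in turn, Timp3 passed only without that one, at -0.79 (limma, adjusted p = 0.00883). The other 3 Timp3 probe sets changed by -0.60, -0.47 and -0.25. Timp1, which is X-linked and a weak inhibitor of membrane-anchored Mmps, read 8.10, 8.45 and 8.26 against 8.09, 8.12 and 7.95, with overlapping groups and a change of -0.21 (limma, adjusted p = 0.321). Timp4 read 5.12, 5.19 and 5.23 against 5.38, 5.42 and 5.33, higher on all labelled-mutant arrays by 0.19 at signals below the array median (limma, adjusted p = 0.21). Timp1, Timp2 and Timp3 thus had negative and Timp4 a positive change, and 0 of the 4 passed in limma, against 3 at an unadjusted p under 0.05.

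Other Mmps with clear signals did not pass either. Mmp11, a stromelysin of mesenchyme that leaves the cell already active, read 8.31, 8.67 and 8.72 against 8.31, 8.05 and 8.04. Labelled-control array 1 equalled the highest labelled-mutant array to 2 decimals, and the change was -0.44 with a standard error of 0.13 (limma, adjusted p = 0.101). Among arrays left out in turn, Mmp11 passed only without labelled-control array 1, at -0.56 (limma, adjusted p = 0.0285). The membrane-anchored Mmp16 read 6.75, 6.72 and 7.10 against 6.65, 6.39 and 6.53, apart by a narrow margin (change -0.34, limma, adjusted p = 0.17), while another of its probe sets at a like signal changed by -0.03. Mmp17, held by a lipid anchor, read 6.59, 6.53 and 6.45 against 6.64, 6.71 and 6.62, a change of 0.13 (limma, adjusted p = 0.408). Mmp9, the gelatinase of osteoclasts and white blood cells, read 5.37, 5.66 and 5.50 against 5.42, 5.42 and 5.38. Its groups overlapped below the array median, with a change of -0.11 and a 95% interval from -0.31 to 0.10.

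The Mmp genes on chromosome 9 had low signals. All 9 of them lay below the array median on every array, and 6 lay below the 25th percentile on every array: Mmp1a, Mmp1b, Mmp8, Mmp12, Mmp13 and Mmp20. In limma 0 of the 9 passed, 0 had an unadjusted p under 0.05, and the median change was 0.04. Mmp13, the collagenase of hypertrophic cartilage whose promoter with a TATA box and an AP-1 motif is printed above, read 3.14, 3.09 and 3.20 against 3.06, 3.00 and 3.14. Mmp12, the macrophage elastase, read 3.15, 2.98 and 3.06 against 3.06, 2.85 and 2.86. Mmp7, the short matrilysin, lay above the 25th percentile on every array, at 5.63, 5.39 and 5.33 against 5.65, 5.75 and 5.51, with overlapping groups. Signals this low cannot show whether such genes differ between the groups. Elsewhere in the genome, 7 of 9 Mmp genes lay above the median on every array, and Mmp19 alone of them lay below the 25th percentile throughout, at 3.77, 3.83 and 3.84 against 3.97, 3.82 and 4.10.

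**Figure D3:**
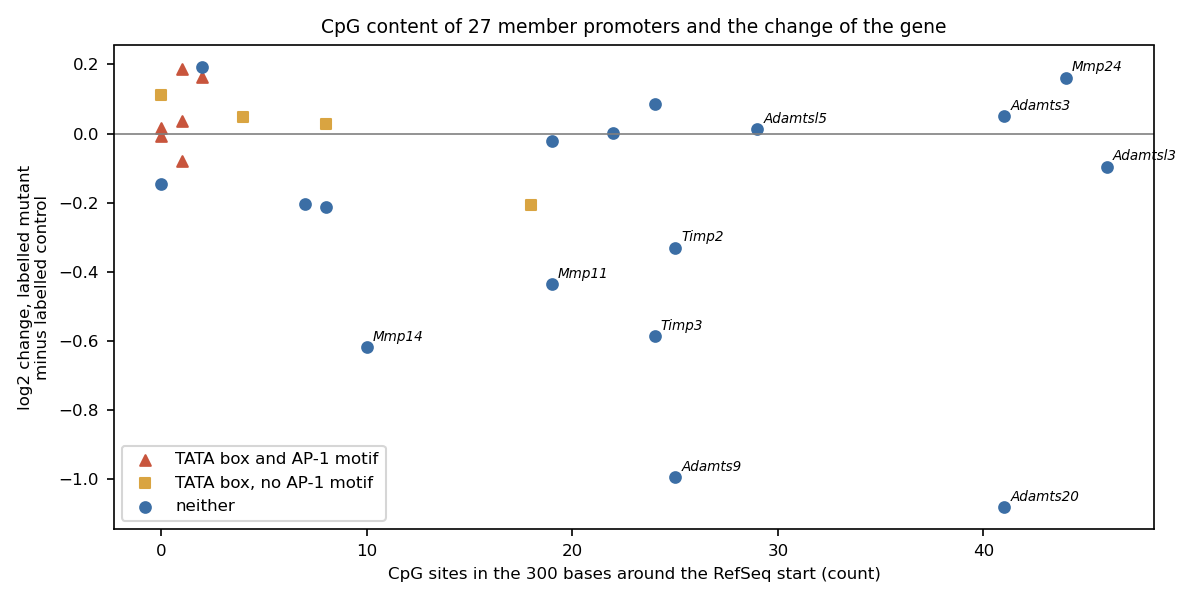
CpG sites in the first listed RefSeq promoter (x axis, count in 300 bases) and log2 change of the gene (y axis) for 27 members, by motif content. The promoters with both a TATA box and an AP-1 motif sit at the left near no change, while Adamts9 (25 sites) and Adamts20 (41 sites) lie at the bottom beside others of like CpG content that changed little, such as Adamts3.

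The Adamtsl genes showed how much a gene's value can hang on the probe set. Adamtsl1, a secreted matrix protein also called punctin, read 5.14, 5.68 and 5.67 against 5.25, 5.22 and 5.14 on its brightest probe set, with overlapping groups and a change of -0.29 (limma, adjusted p = 0.318). A second probe set (1442063_at), nearly as bright over the 6 arrays, read 5.37, 6.65 and 6.07 against 4.78, 4.06 and 4.52. On that one the groups were apart, and the signal fell by 1.58 with a standard error of 0.31 (limma, adjusted p = 0.0393 over all probe sets). The dimmest probe set changed by -0.56, also without overlap. Adamtsl2, Adamtsl3, Adamtsl4 and Adamtsl5 changed by between -0.10 and 0.09 with overlapping groups. Of all 78 member probe sets fitted one by one, 5 passed and all were lower: 2 of Adamts9 and 1 each of Adamts20, Adamts15 and Adamtsl1, where 2.82% of all single-symbol probe sets passed.

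**Figure D4:**
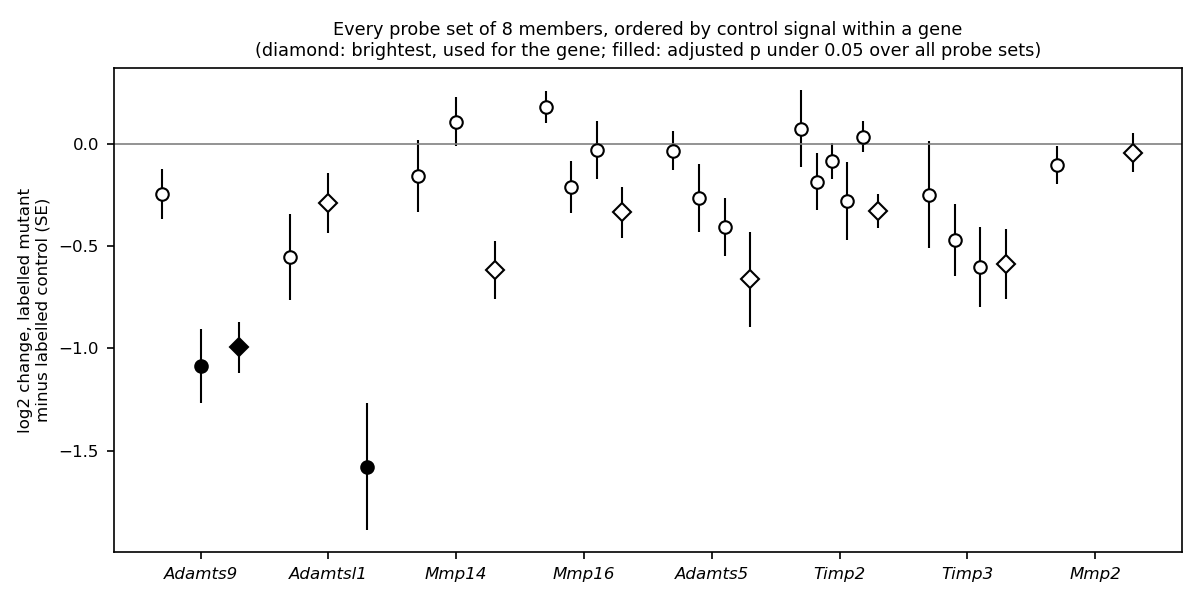
Log2 change with its standard error for every probe set of 8 members, ordered by labelled-control signal within a gene. Diamonds mark the probe set used for the gene. Filled symbols passed over all probe sets, namely 2 of Adamts9 and 1 of Adamtsl1 (-1.58), whose used probe set changed by only -0.29.

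The 19 members not given array by array had changes between -0.20 and 0.16 and limma adjusted p values from 0.467 to 0.99. Of these, 1 had groups that did not overlap (Mmp20, below the 25th percentile throughout), and 8 lay above the array median on every array.

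Several members shared a low labelled-control array 1. Leaving out a low control value is bound to enlarge a fall. Without that array Timp3, Mmp11, Adamts5 and Adamtsl1 passed as lower (limma, adjusted p = 0.00883, 0.0285, 0.018 and 0.0171), and Mmp14 and Adamts7 no longer did (0.0555 and 0.0804). The members called were 7 against 5, and the calls over all genes 1021 against 1007. Leaving out any other array did not make these 4 genes pass (limma, adjusted p up to 0.274, 0.314, 0.394 and 0.584). Endothelial markers averaged 7.51 on labelled-control array 1, against 7.85 and 7.83 on the other labelled-control arrays and 7.62 to 7.77 in the labelled-mutant arches. Within the labelled controls that array was also the lowest for skeletal muscle (7.04 against 7.39 and 7.28), erythroid (9.50 against 9.68 and 9.86), epithelial (8.51 against 8.59 and 9.22), macrophage (6.61 against 6.65 and 7.05), neuronal, neutrophil and osteoclast marker means, and the highest for chondrocyte (7.65 against 7.53 and 7.31) and smooth muscle marker means. The part of these differences in the 4 genes was not tested.

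Some genes that work with these proteases passed, where 4.3% of all genes passed as lower and 1.23% as higher. In lists this small, 1 call says little about the list. The lists were chosen with earlier results of these data known. Bmp1, the procollagen C-proteinase of the astacin family, fell by 0.53 from 9.38 ± 0.02 to 8.85 ± 0.03 (limma, adjusted p = 0.0038), 1 of 5 astacins and enhancers that passed. Among cathepsins, Htra proteases, enzymes that cut glycans and the peptidases Fap, Dpp4 and Cpz, 3 of 11 fell and 0 rose. These were the collagen-degrading Ctsk by 0.89, the fibroblast surface protease Fap by 0.74 and Htra1 by 0.49 (limma, adjusted p = 0.0119, 0.0416 and 0.0285). Of 7 genes of the plasminogen system 1 passed, the activator Plat, which fell by 0.48. Of 13 activators and brakes 1 passed, Spock3, which fell by 0.42 at signals below the 25th percentile on every array, while the proprotein convertases Pcsk5 and Furin changed by -0.45 and -0.17 (limma, adjusted p = 0.0999 and 0.265). Of 11 Adam genes, many of which encode proteases that shed proteins from the cell surface, 0 passed (limma, 1 at an unadjusted p under 0.05, Adam22, which lacks protease activity, at -0.39). The list medians in this order were -0.05, -0.29, 0.04, -0.17 and -0.06, against 0.02 over all genes.

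The substrates of the proteases changed in both directions. Of the 19 on the array, 6 fell and 1 rose, where 4.3% of all genes passed as lower and 1.23% as higher. The median change was -0.29. The fibrillar collagen genes Col1a2, Col1a1, Col5a1 and Col3a1 fell by 0.78, 0.74, 0.69 and 0.64, Ltbp1, which anchors latent TGF-beta in the matrix, by 0.61, and the proteoglycan gene Ncan by 0.62. Ncan, unlike the others that fell, lay below the array median on every array. Col2a1 of cartilage rose by 0.50. Vcan, the versican substrate of Adamts9 and Adamts20 and named here after its values were seen, read 11.85 ± 0.05 against 11.76 ± 0.15 with overlapping groups (limma, adjusted p = 0.677).

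Some markers of other cell types also differed between the labels, where 4.3% of all genes passed as lower and 1.23% as higher. In whole-arch RNA, fewer cells of a type cannot be told apart from less RNA per cell. Of 8 neuronal markers 5 fell, and the log2 of their summed signal was 11.64 to 11.88 in labelled-control and 10.86 to 11.20 in labelled-mutant arches. Of 8 skeletal muscle markers 3 fell, with sums of 10.72 to 11.29 against 9.43 to 10.47. Of 9 macrophage markers 1 fell (Ptprc), with sums of 10.37 to 10.68 against 9.94 to 10.25, and of 3 glial crest markers 1 fell (Sox10), with sums of 9.27 to 9.77 against 8.82 to 9.09. Chondrocyte markers went the other way, with 2 of 7 higher and sums of 11.73 to 12.41 against 12.59 to 12.84. Of 6 osteoclast markers 1 fell, the Ctsk already counted with the cathepsins, and 2 changes were positive and 4 negative. Their sums of 8.81 to 9.52 against 8.48 to 8.80 nearly touched. Of 7 smooth muscle and pericyte markers 1 fell (Acta2), with sums of 11.88 to 12.05 against 11.67 to 11.74. Rgs5 of that list was higher on all labelled-mutant arrays, by 1.18, and did not pass (limma, adjusted p = 0.126). The list had 4 positive and 3 negative changes, a median change of 0.02 and marker means by array that overlapped. Sums overlapped for 8 endothelial (10.80 to 11.14 against 10.93 to 11.03), 9 epithelial (12.00 to 12.62 against 12.33 to 12.35), 7 neutrophil (8.33 to 8.59 against 8.11 to 8.54) and 6 erythroid markers (15.41 to 15.55 against 15.34 to 15.44), of which 0, 1, 0 and 1 passed in limma (0, 3, 2 and 2 at an unadjusted p under 0.05). Of the 10 arch mesenchyme markers 4 rose and 1, Pdgfra, fell, with sums of 14.24 to 14.37 against 14.34 to 14.44. Those sums overlapped, while the marker means by array did not (9.96 to 10.12 against 10.26 to 10.38). The list had 7 positive and 3 negative changes. Of all 88 marker genes 4 lay below the 25th percentile on every array: Calcr, Matn1, Cnn1 and Hba-a1. The part of these cell types in the fall of Adamts9, Adamts20, Adamts15, Mmp14 and Adamts7 was not tested.

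**Figure D5:**
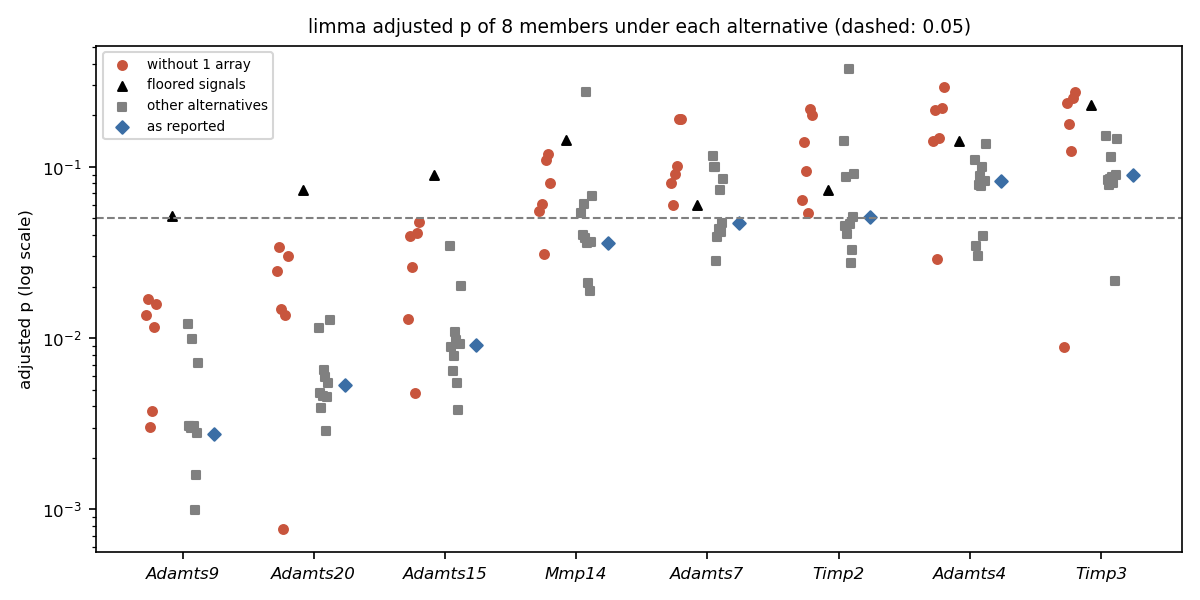
limma adjusted p (log axis) of 8 members as reported, without each array in turn, with floored signals and under the other alternatives. Adamts9, Adamts20 and Adamts15 stay under 0.05 except with floored signals, while Mmp14, Adamts7 and Timp2 lie on both sides of it.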

How the data were processed

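The deposited table gives a log2 signal for each probe set on each array. That the authors used log2 is read from the range, 2.63 to 14.68 on all arrays, and whole percentiles over all probe sets that differ between arrays by at most 0.002 show that they had brought the arrays to 1 distribution (over the tested genes, on which quantile normalization was run as an alternative, the gap reached 0.184). The authors' background correction, summary method and software are not stated in the labels or the file. Total RNA was extracted with a Qiagen kit and biotin-labelled, per the labels' protocols.

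Of 45101 probe sets, 34958 had 1 gene symbol in the platform annotation of 2016, 932 had several and 9211 none. Only the first kind was used. limma 3.58.1 (lmFit and eBayes, R 4.3.3) was fitted to 18194 genes with label as the only term, and two-sided p-values were adjusted over all genes by Benjamini-Hochberg at a threshold of 0.05. The fit was also run on simulated arrays with independent noise, which held no sex, array or cell-type differences and so does not test those limits. Family members without such a probe set were not analysed here. Marker sums are of linear signals. The members, lists and tests were chosen with earlier results of these data known. Values by array are given for members past the threshold, the 20 with the largest moderated t, the Timps and 9 fixed genes. Of the pathway lists, members past the threshold and some others are named. Arrays correlated at 0.995 to 0.998 within and 0.988 to 0.992 between groups, and their number limits the precision. Promoters were scanned with Python 3.11.15.

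Alternatives were a replicate block, quantile and cyclic loess normalization, median centring, the mean of probe sets, a filter on dim genes at the 25th percentile, a floor at the 20th percentile, trend and robust settings, array weights, autosomal genes only, each probe set on its own, and each array left out.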

Additional observations from a re-analysis of the deposited data

How the results depend on the processing

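The 5 members called became 3 with the replicate block, 0 with floored signals (limma, 12 at an unadjusted p under 0.05) and 10 with array weights, and between 3 and 7 without 1 array. Over all genes the 1007 calls became 657 with the replicate block and 329 with floored signals, and between 435 and 1021 without 1 array. The lowest of these came without labelled-mutant array 3 (435), labelled-mutant array 2 (481) and labelled-control array 2 (551). Same-numbered arrays did not deviate together (correlations -0.21, -0.12 and -0.07 over genes, and 0 of 6 arrays matched best with its own number). The labels do not say whether same-numbered embryos were paired, and these correlations cannot exclude it. The floor lowered limma's prior degrees of freedom from 4.51 to 0.65 and changed 0 signals of the 5 called members. Centring on the median gene gave 479 higher and 675 lower genes against 224 and 783, and 1 higher and 3 lower members. Among the 23 members given array by array, signs turned for Mmp12 (0.0007) and Mmp13 (0.0007) with floored signals. The sign of Mmp2 turned with median centring (0.029) and without labelled-control array 2 or labelled-mutant array 3 (values without 1 array ran from -0.10 to 0.027). None of these was called. Several of the other members also turned sign, such as Adamts16 (from -0.15 to 0.18 over the alternatives), and none of those was ever called. Array weights raised Adamts4, Adamts5, Mmp11, Timp2 and Timp3 past the threshold. Over the changes of 23 members under these alternatives, 341 kept direction and side of the threshold, 25 lost and 16 gained a call, and 5 turned sign. The array number limits all members, and signals near background limit the low ones, among them the 9 Mmp genes on chromosome 9.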

Other observations

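Adamts15 and Adamts8 have 0 protein-coding genes between them on chromosome 9 in the RefSeq gene table, and while Adamts15 fell by 1.00, Adamts8 changed by 0.08 (limma, adjusted p = 0.836). Adamts8 lay below the array median on every array and Adamts15 above it, so the low signal limits this contrast. Adamts1 and Adamts5 are likewise direct neighbours on chromosome 16, with changes of -0.21 and -0.66 that did not pass.

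Timp1, Timp3 and Timp4 each lie inside a synapsin gene, Syn1, Syn3 and Syn2 in that order. Syn3, a synaptic vesicle gene, fell by 0.57 from 5.33 ± 0.09 to 4.76 ± 0.09 (limma, adjusted p = 0.00617), beside a change of -0.59 in Timp3 that did not pass. Syn1 and Syn2 changed by -0.08 and -0.10 (limma, adjusted p = 0.73 and 0.586). Syn1, Syn2 and Syn3 lay below the array median on every array.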
